A study of Mus musculus with 8 samples.

Results

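The 10 genes described here encode CTCF and the cohesin machinery, which together fold chromatin into loops, and ZNF143, the product of Zfp143. They are Ctcf, Zfp143, Rad21, Smc1a, Smc3, Stag1, Stag2, Nipbl, Wapl and Pds5a. Out of 21755 protein-coding genes on chromosomes 1 to 19 and X, these 10 were chosen by name from what their proteins do. The choice was made with earlier results of these data known. Every region of the deposited lists that overlapped the body of one of the 10 genes (mm10 build, GENCODE M21 annotation) or lay within 10 kb of it was collected. This gave 5 of the 8031 regions of the first list and 0 of the 250 regions of the second.

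The lists come from ATAC-seq, in which a transposase cuts and tags open chromatin, of nuclei from frozen liver of adult C57BL/6 mice (C57BL/6J in the methods of the study). There were 4 control libraries, whose titles carry the word cre, and 4 Alb-D2KO libraries, each from 50000 nuclei. Alb-D2KO mice carry a floxed Dio2 gene, which encodes the thyroxine-activating type 2 deiodinase, and Cre recombinase driven by the albumin promoter. The study describes the inactivation of Dio2 as specific to hepatocytes. It also states that normal liver expresses Dio2 only early after birth, so the adult livers used here were past that time. The first list holds regions open in control liver and without an overlapping region in Alb-D2KO liver, called RCAs for reduced chromatin accessibility, and the second list holds the regions open only in Alb-D2KO liver.

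CTCF is a zinc finger protein that binds insulators and loop anchors, and ZNF143, the product of Zfp143, is a zinc finger activator that binds promoters and is found at loop anchors. Cohesin is a ring of SMC1A, SMC3 and RAD21 that holds one of the STAG proteins, STAG1 or STAG2. The ring is loaded and driven along DNA with the help of NIPBL, is released by WAPL, and has its time on DNA set by PDS5 proteins. Chromatin loops grow as the ring extrudes DNA and stop where it meets bound CTCF.

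Each region has 1 value from a call on the pooled libraries of its genotype, so no value below has a replicate error, no test over animals could be made, and the depth of the libraries is unknown. The size of a region is given by the area under the curve (AUC) of −log10 p along it, by its width, and by the −log10 q at its summit. The smallest AUC among all RCAs was 200.004, the median was 278, and the quartiles were 232 and 351. A region absent from both lists was either open in both genotypes or called in neither, and the lists do not tell these apart. In bulk liver, fewer cells of a type and a less open region in each cell cannot be told apart either.

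Of the 10 genes, 5 had an RCA within 10 kb, with 1 RCA each: Ctcf, Zfp143, Stag2, Nipbl and Pds5a. Across all protein-coding genes the share with an RCA within 10 kb was 25.3%. At Ctcf, Stag2 and Pds5a the region lay at the start of the gene itself, at Nipbl it lay just upstream, and at Zfp143 it lay past the end of the gene. The remaining 5 genes, Rad21, Smc1a, Smc3, Stag1 and Wapl, had no region of either list within 10 kb. The genes of all core ring subunits, Smc1a, Smc3 and Rad21, were thus among those without an RCA. Having none within 10 kb was the more common outcome for protein-coding genes of similar length. The share with none was 72.6% for the length of Rad21, 69.1% for Smc1a and 68.9% for Smc3. For Smc1a, 4 of 70 X-linked genes of similar length (5.71%) had an RCA.

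**Figure D1:**
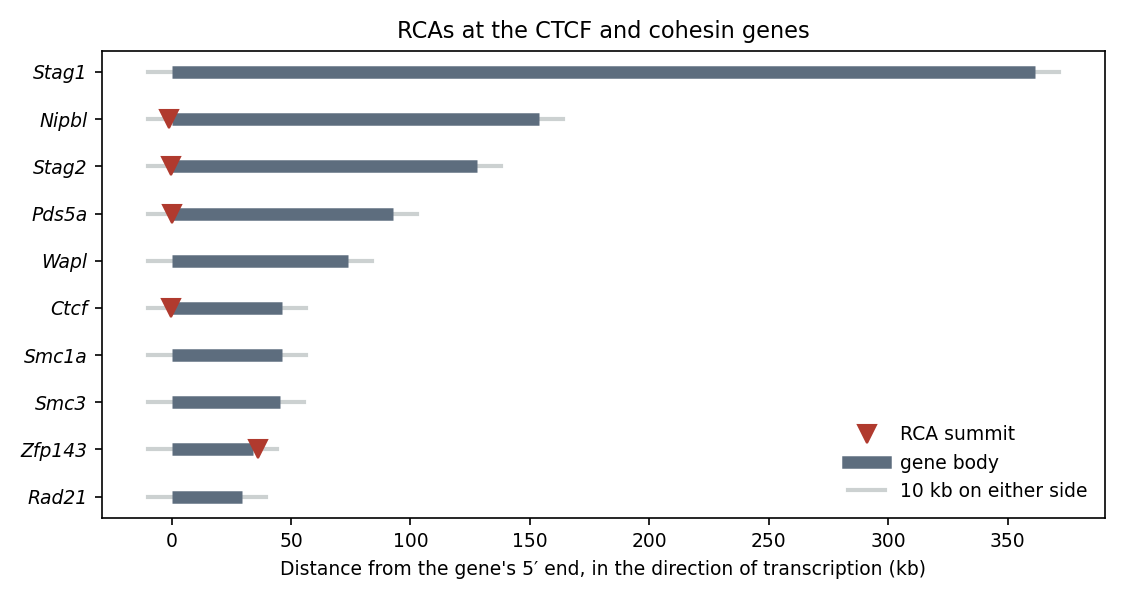
Position of the RCAs at the 10 genes. The x axis is the distance in kb from the 5′ end of each gene, in the direction of transcription; dark bars are gene bodies, pale lines the 10 kb on either side, and triangles the summits of the 5 RCAs. The triangles of Ctcf, Stag2 and Pds5a sit at the gene start and that of Nipbl just upstream of it. That of Zfp143 sits beyond the gene end, and the other 5 genes carry none.

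The sequence of these regions is shown because 3 of them lie at the promoters of their genes and the letters show what kind of DNA was listed as less open. Each is read from GRCm38.p6 (mm10) around the summit, 5′ to 3′ on the strand of the gene, in lower case, with any match to the motif GGGCGG, the GC box bound by SP1 and its relatives, in capitals on whichever strand it lies. Exons of coding genes are left out, except that 30 bases are shown for Nipbl, whose region overlaps an exon of a predicted RefSeq gene model. The stretches are Ctcf at chr8:105636174-105636473 (plus strand), Stag2 at chrX:42148925-42149212 (plus), Pds5a at chr5:65698274-65698573 (minus), Nipbl at chr15:8445502-8445531 (minus) and Zfp143 at chr7:110097435-110097646 (plus).
Ctcf: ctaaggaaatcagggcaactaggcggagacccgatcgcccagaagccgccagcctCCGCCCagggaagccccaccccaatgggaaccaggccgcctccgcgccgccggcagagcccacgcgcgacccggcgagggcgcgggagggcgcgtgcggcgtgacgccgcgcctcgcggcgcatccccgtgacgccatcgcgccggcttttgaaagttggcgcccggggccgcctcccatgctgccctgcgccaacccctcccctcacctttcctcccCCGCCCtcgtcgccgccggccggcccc
Stag2: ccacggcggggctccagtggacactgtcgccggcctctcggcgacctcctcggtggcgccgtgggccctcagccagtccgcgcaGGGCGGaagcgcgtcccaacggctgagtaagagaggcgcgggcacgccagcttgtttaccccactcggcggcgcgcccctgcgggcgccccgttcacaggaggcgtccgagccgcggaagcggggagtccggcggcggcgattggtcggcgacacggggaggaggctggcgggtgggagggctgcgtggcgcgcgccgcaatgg
Pds5a: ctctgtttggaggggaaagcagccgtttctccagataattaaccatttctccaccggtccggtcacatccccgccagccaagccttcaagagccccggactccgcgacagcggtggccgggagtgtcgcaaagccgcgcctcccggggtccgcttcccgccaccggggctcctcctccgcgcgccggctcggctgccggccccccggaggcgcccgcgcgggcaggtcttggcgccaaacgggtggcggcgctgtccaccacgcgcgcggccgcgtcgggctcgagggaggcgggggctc
Nipbl: gcctgggctccacccacacctagatcgcag
Zfp143: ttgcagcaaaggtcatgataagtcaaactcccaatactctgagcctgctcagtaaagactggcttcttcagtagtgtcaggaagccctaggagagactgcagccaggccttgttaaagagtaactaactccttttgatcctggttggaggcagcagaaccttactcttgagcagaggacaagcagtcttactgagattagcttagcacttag

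Ctcf (ENSMUSG00000005698.15, chr8:105636568-105682922, plus strand) carried a promoter-class RCA at chr8:105635990-105636618. A region was put in the promoter class when it overlapped the 200 bp on either side of any annotated start. This region covered 2 annotated starts of Ctcf, reached 51 bp into the gene, and had its summit at −111 bp from the 5′ end. It was wide and shallow. Its width of 629 bp was above 93.2% of all RCAs, whereas its AUC of 237 was above only 28.1% of all RCAs and 20.6% of the promoter class. The AUC per base pair, 0.377, was higher than in only 0.847% of RCAs. The summit had a −log10 q of 2.93 (percentile 27.2). The start is shared: within 1 kb of the region also lie starts annotated for Gm5914, a long noncoding RNA gene on the minus strand whose start is 732 bp away, and for a transcript of Agrp. The region therefore cannot be assigned to Ctcf alone.

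Zfp143 (ENSMUSG00000061079.14, chr7:110061217-110095394, plus strand) had an RCA at chr7:110097435-110097748, which was 2041 bp past the 3′ end of its body and inside an intron of the opposite-strand gene 1600010M07Rik. The nearest annotated start of Zfp143 was 5806 bp away, and the summit was 36279 bp from the 5′ end. The region was of middling size among all RCAs. It was 314 bp wide (percentile 46.8) with an AUC of 283 (percentile 52.6), and a −log10 q of 2.87 (percentile 21.3). The promoter of Zfp143 itself was in neither list.

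Among the genes of the ring, Rad21 (ENSMUSG00000022314.10, chr15:51962240-51991747, minus strand), the kleisin that closes the ring and is cut at anaphase, had no RCA nearer than 169 kb. Smc1a (ENSMUSG00000041133.11, chrX:152016428-152062694, plus strand) had none nearer than 280 kb, and Smc3 (ENSMUSG00000024974.10, chr19:53600398-53645833, plus strand) none nearer than 240 kb; both genes encode ATPase arms of the ring. These distances are not extreme, since 34.0%, 26.1% and 28.4% of all protein-coding genes were as far as Rad21, Smc1a and Smc3, respectively, or farther from an RCA, and 31.2% of protein-coding genes had none within 200 kb.

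The STAG genes differed in the lists. Stag2 (ENSMUSG00000025862.14, chrX:42149317-42277185, plus strand) had a promoter-class RCA at chrX:42148925-42149305, ending 12 bp upstream of the 5′ end, with its summit at −255 bp. RefSeq places a start of Stag2 within the region. The region was 381 bp wide (percentile 64.6) with an AUC of 259.8, above 41.4% of all RCAs and 31.7% of the promoter class. Its −log10 q of 2.65 was low, above only 6.64% of RCAs. A gene model of unproven status on the minus strand, Gm37564, has its start 876 bp away. Stag1 (ENSMUSG00000037286.15, chr9:100597798-100959375, plus strand), which encodes the alternative subunit, is the longest of the 10 genes at 362 kb and had no RCA in its body or nearer than 138 kb. With 1 pooled call per genotype, the difference between Stag1 and Stag2 was not tested.

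Nipbl (ENSMUSG00000022141.7, chr15:8290617-8444463, minus strand), the gene of the cohesin loader, had an RCA at chr15:8445393-8445587, 930 bp upstream of its only GENCODE start and therefore in the intergenic class. The summit was at −1053 bp. It was narrow and steep, the reverse of the region at Ctcf. Its width of 195 bp was above only 11.8% of RCAs, whereas its AUC of 331.7 was above 69.8%, its AUC per base pair of 1.7 above 99.1% and its −log10 q of 4.08 above 98.9%.  In RefSeq the nearest start of Nipbl was 772 bp away, and the farthest upstream start lay 19.7 kb beyond the region, which places the region inside the gene in that annotation.

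The genes that act on the bound ring differed as well. Pds5a (ENSMUSG00000029202.12, chr5:65605721-65698273, minus strand), which encodes a PDS5 scaffold for release and for protection of cohesin, had a promoter-class RCA at chr5:65698200-65698776. This region reached 74 bp into the gene, covered 1 annotated start, and had its summit at −10 bp from the 5′ end. Its AUC of 463 was the largest of the 5 and above 91.6% of all RCAs and 86.8% of the promoter class, and its width of 577 bp was above 90.3%. The AUC per base pair was 0.802 (percentile 36.5) and the −log10 q 2.95 (percentile 29.5). Wapl (ENSMUSG00000041408.18, chr14:34673928-34747983, plus strand), the releasing factor, had no RCA nearer than 52.7 kb; 54.6% of protein-coding genes were as far or farther from one.

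**Figure D2:**
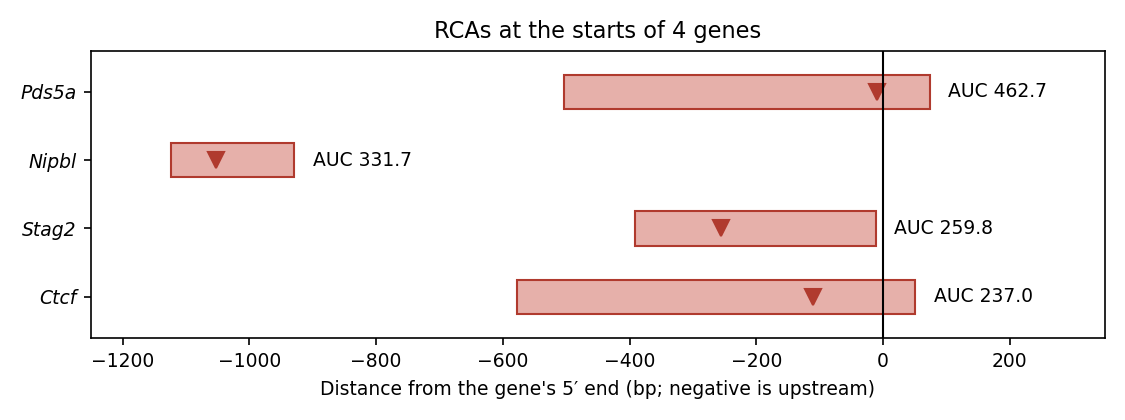
The RCAs within 1 kb of the starts of Ctcf, Stag2, Nipbl and Pds5a. The x axis is the distance in bp from the 5′ end of the gene, with upstream negative; bars span each region, triangles mark summits, and the AUC stands beside each bar. The bars of Ctcf and Pds5a cross the 5′ end, that of Stag2 stops 12 bp before it, and that of Nipbl lies 930 bp upstream.

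Read together, 3 of the 10 genes had a promoter-class RCA, against 9.58% of all protein-coding genes, and the same 3 genes had an RCA within 200 bp of one of their own starts, against 5.99%. With Nipbl, 4 of the 10 had an RCA within 1 kb of an own start, against 9.19%. These shares are over 10 genes chosen by name with earlier results of these data known, and they were not tested. The percentages are over all protein-coding genes, including any without a control region at the start. The lists do not show which genes those were. The RCAs per Mb were not higher than elsewhere: the 10 genes with their 10 kb margins span 1.21 Mb and held 4.13 RCAs per Mb. The same windows of all protein-coding genes span 1280 Mb and held 4.99 per Mb (6385 RCAs). The 10 genes are longer than most, and these densities were not matched for gene length. Regions open only in Alb-D2KO liver were within 10 kb of 0 of the 10 genes, against 1.02% of protein-coding genes. The nearest such region was 386 kb from Rad21, and the distance reached 26.2 Mb at Zfp143.

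The 5 regions ranged from 237 to 463 in AUC (median 283) and from 195 to 629 bp in width (median 381 bp). For the whole promoter class the medians were an AUC of 304 and 391.5 bp of width. Thus of the 3 promoter-class regions, that of Pds5a was above the class median in both AUC and width, that of Ctcf was above it in width only, and that of Stag2 was below it in both.

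**Figure D3:**
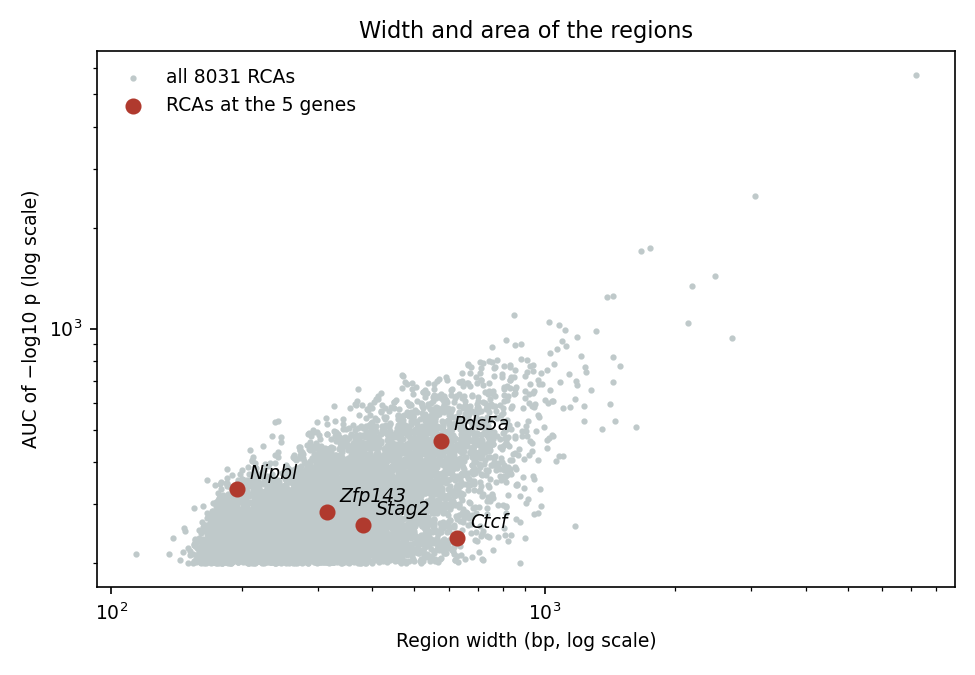
Width (bp) and AUC of −log10 p of the RCAs, both on log scales. Grey points are all 8031 RCAs and red points the regions at the 5 named genes; Ctcf lies at the wide, low-area edge of the cloud, Nipbl at the narrow edge, and Pds5a in the upper part.

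Because a long gene has more room for a region, each gene was set beside the protein-coding genes whose length was within 20% of its own. The 10 genes are long, with a median of 60.2 kb against 17.4 kb for all protein-coding genes. Among genes of similar length, the share with an RCA within 10 kb ranged from 27.4% (Rad21, 648 of 2368 genes, 95% Wilson interval 25.6 to 29.2%) to 37.4% (Nipbl, 299 of 800 genes, 34.1 to 40.8%). The interval covers counting error over genes only. Summed over the 10 genes these shares came to 3.2 genes, against the 5 that had an RCA. The share of similar-length genes with an RCA within 1 kb of an own start was 11.1% for Ctcf, 13.9% for Stag2, 14.0% for Nipbl and 12.6% for Pds5a. For Stag1 the share with an RCA was 33.6% (100 of 298 genes, 28.4 to 39.1%). Stag1 held 0 RCAs, which was also the median count of that set. In the set 66.4% of genes had none, and the highest count was 13.

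The X chromosome stood apart in how few of its genes had an RCA. The RCAs were at most 35.1% of its numbered control regions, against at most 35.9% over all chromosomes. It held 40 RCAs, 29 of them in the promoter class, and 5.27% of its 948 protein-coding genes had an RCA within 10 kb, with 3.38% having one within 1 kb of an own start. Among X-linked genes of similar length, 2 of 55 other genes (3.64%) had an RCA in the set of Stag2, and 4 of 70 (5.71%) in that of Smc1a. The share as far from an RCA as Smc1a or farther was 74.3% among genes of the X chromosome.

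**Figure D4:**
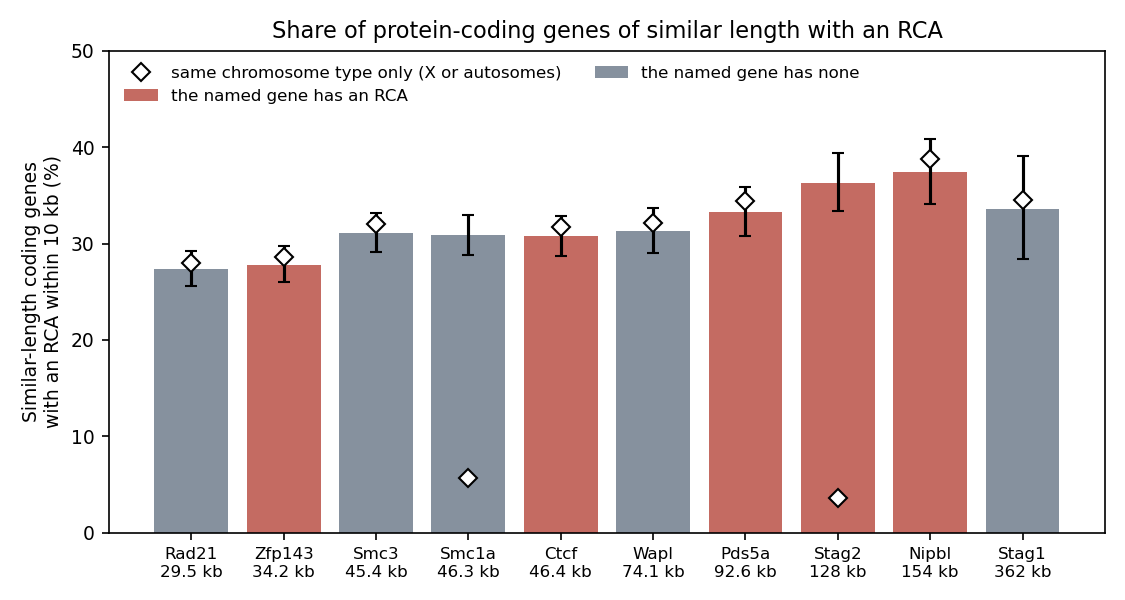
Percent of protein-coding genes of similar length (within 20%) with an RCA within 10 kb, for each of the 10 genes in order of length. Bars are coloured by whether the named gene has an RCA, error bars are 95% Wilson intervals, and diamonds restrict the genes to the same chromosome type; the diamonds of Stag2 (3.64%) and Smc1a (5.71%) lie far below their bars.

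Beyond 10 kb, the closest RCA was most often in or near another gene. At Pds5a a second RCA, intergenic and with an AUC of 447.2, lay 26.1 kb upstream, with Pds5a as the nearest protein-coding gene. At Ctcf the next RCA was 31.4 kb downstream in an exon of Gfod2 (AUC 214.6). At Wapl the closest one was intergenic, 52.7 kb upstream and 20556 bp from Opn4, with an AUC of 582.6, larger than any of the regions at the 10 genes. For the ring genes the closest RCAs were below the median AUC of all RCAs, 278, which has as many RCAs below it as above. The next RCAs of Ctcf, Zfp143, Stag1 and Stag2 were below it too, so this was not particular to the ring genes. The RCA upstream of Rad21 had an AUC of 200.4, near the smallest of the list, and was nearest to Aard. That of Smc3 was in an intron of Mxi1 (AUC 212), and that of Smc1a was at the promoter of Tspyl2 (AUC 255.1). The closest RCA to Stag1 was in an intron of Msl2 (AUC 205.6). The next RCAs of Stag2, at the promoter of Thoc2 (AUC 260.8), of Nipbl, in an intron of Wdr70 (AUC 279), and of Zfp143, at a promoter of St5 (AUC 225.6), were 237 kb, 359 kb and 389 kb away. The median distance from the body of the 10 genes to the nearest RCA was 27.4 kb, against 68.2 kb for all protein-coding genes, without matching for gene length.

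**Figure D5:**
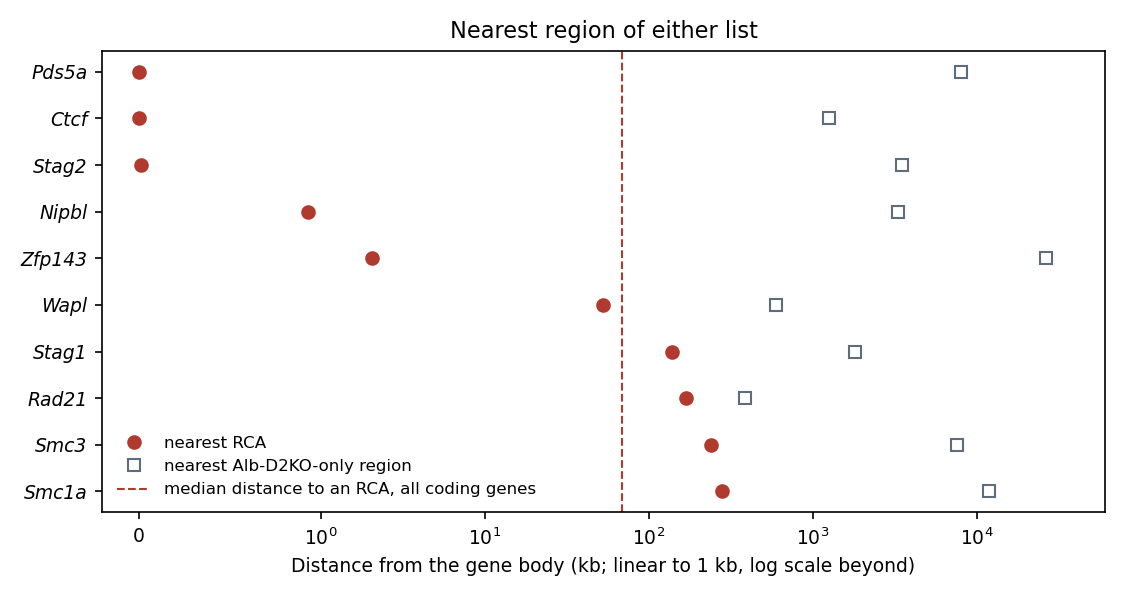
Distance in kb from each gene body to the nearest RCA (circles) and the nearest Alb-D2KO-only region (squares); the axis is linear to 1 kb and logarithmic beyond, and the dashed line is the median distance to an RCA over all protein-coding genes (68.2 kb). The circles of 5 genes lie within 10 kb, that of Wapl lies just left of the line, and those of Stag1, Rad21, Smc3 and Smc1a lie to its right.

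The lists also carry, in the number given to each control region along a chromosome, a trace of the control regions that an Alb-D2KO region overlapped and that were taken out. The highest number was 22367, so RCAs were at most 35.9% of the control regions. Between the RCAs that flank Ctcf, an interval of 0.198 Mb, 9 control regions were numbered, the RCA at the Ctcf start and 8 that were overlapped by an Alb-D2KO region. The interval of Pds5a held 7 control regions, 6 of them kept, that of Nipbl 7 with 6 kept, and that of Zfp143 15 with 14 kept. Because each interval is bounded by the neighbouring RCAs, every control region in it other than the gene's own RCA was kept by construction, and the counts only describe how many there were. Around the 5 genes without an RCA there were 11 around Rad21, 4 around Smc1a, 3 around Smc3, 13 around Stag1 and 5 around Wapl. At Stag2 the interval spanned 6.43 Mb and the region at its start was the only control region in it. On the whole X chromosome at least 114 control regions were numbered, of which the 40 RCAs were at most 35.1%. The positions of the kept regions are not given, so whether they lie at the promoters of these genes is unknown.

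In base composition the promoter-class regions of these genes were more GC-rich than most. The region at Stag2 had 75.1% GC, that at Ctcf 71.9% and that at Pds5a 66.6%, against a median of 60.0% for promoter-class RCAs and 51.9% for all RCAs. The observed-to-expected ratio of CpG was 1.05, 0.978 and 1.03, respectively, against a class median of 0.624. The region near Nipbl had 56.9% GC and a CpG ratio of 0.956, well above the median of 0.246 for intergenic RCAs, and the region past Zfp143 had 47.8% GC and a ratio of 0.0561, below the median of 0.23 for intronic RCAs. No base of the regions at Ctcf, Zfp143, Stag2 and Pds5a was masked as repeat, while 15.4% of that near Nipbl was.

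Motifs were searched as letters on both strands in windows of 300 bases centred on the summit. The consensus motif of CTCF, the product of one of these genes, was found in none of the 5 windows with up to 1 mismatch, while it was found in 15.7% of all RCA windows and 7.18% of the promoter class. The consensus of ZNF143 was found in none either, against 0.486% and 1.47%. The GC box (GGGCGG) was found in the window of Ctcf, 8 bp from the summit on the opposite strand. It was also in that of Stag2, 51 bp from the summit, and in that of Pds5a. At Pds5a 2 copies lay 28 and 125 bp from the summit, past the GENCODE 5′ end and so outside the printed stretch. The nearer copy was at −22 bp from a RefSeq start, and the farther one was outside the region. The printed stretch of Ctcf held a second copy, also on the opposite strand, 226 bp from the summit and so outside the window. It occurred in 46.3% of promoter-class windows and 17.7% of all. The ETS core CCGGAA occurred in the Stag2 window only, 144 bp from the summit and just outside the region, against 16.5% of the promoter class and 7.22% of all windows. The NRF1 half-site TGCGCA occurred in none of the 5, against 6.54% and 3.25%.

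RefSeq promoters of 300 bases on GRCm38.p6 were at hand for 7 of the 10 genes, all but Rad21, Stag2 and Nipbl. The GC box was in a promoter of each of the 7, where a gene could have several promoters. Counted promoter by promoter, the GC box was in 35.7% of all 32851, so the 2 figures are not in the same unit. It was thus found both at Ctcf and Pds5a, which had a promoter RCA, and at Zfp143, Smc1a, Smc3, Stag1 and Wapl, which had none there. The Wapl promoter held an exact match to the ZNF143 consensus, ACTACAACTCCC, at −162 bp from the start, on the strand of the gene, which 2.1% of promoters held with up to 1 mismatch. No promoter of the 7 held the CTCF consensus, against 2.28% of all. The ETS core was in the promoters of Smc1a and Wapl, against 14.9%, and the NRF1 half-site in none, against 7.76%. A match of letters, or the lack of one, says nothing of whether a factor was bound.

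The wider machinery was read from a list of 36 further genes for cohesin, its regulators, CTCF partners, condensin and the SMC5/6 complex. Of these, 9 (25.0%) had an RCA within 10 kb, close to the 25.3% of all protein-coding genes, with 14 RCAs in all. An RCA within 1 kb of an own start was found at 2 of the 36, against 9.19% of all protein-coding genes. A promoter-class RCA within 10 kb was found at 4 of the 36, against 9.58%. None of the regions open only in Alb-D2KO liver was near any of the 36. Patz1, which encodes a zinc finger factor, had an RCA at its own start (AUC 306). Ctcfl, the germline paralogue of Ctcf, had a promoter-class RCA 4546 bp from its body (AUC 413), at the start of another gene. Yy1, which encodes a zinc finger factor of enhancer-promoter loops, had 2 intronic RCAs (AUC 239 and 366). Among condensin genes, Ncapd2 had an RCA in an exon of another gene 6191 bp away (AUC 335), and Ncaph2 had 2 promoter-class RCAs 4179 and 6139 bp away (AUC 228 and 355). Among SMC5/6 genes, Nsmce2 had 4 RCAs (AUC from 203 to 296), Nsmce1 had 1 in an exon (AUC 484), and Nsmce4a had 1 in an intron (AUC 269). The other 27 genes had none, among them Pds5b, the paralogue of Pds5a, and Mau2, whose product loads cohesin with NIPBL.

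Among marker genes of liver cell types, 6 of 7 hepatocyte markers had RCAs within 10 kb (17 RCAs, at Alb, Apoa1, Apob, Hnf4a, Serpina1a and Ttr; Cps1 had none), while 2 of 9 markers of other liver cells had 1 each, Pecam1 and Stab2. The share over all protein-coding genes was 25.3%, which the count for other liver cells is close to. Regions open in both genotypes are not listed, so these counts do not show which cells the nuclei came from. Their part in the results above was not tested. Dio2, the inactivated gene, had no region of either list within 10 kb, so the lists do not check the genotype.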

How the data were processed

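The data were ATAC-seq of liver nuclei, 4 control and 4 Alb-D2KO libraries, deposited as 2 lists of regions on mm10. The submitters' processing notes name BWA 0.7.17, Picard, FastQC and Genrich 0.6. The authors trimmed adapters, removed duplicate, supplementary and poorly mapped alignments, called regions on pooled libraries, and subtracted regions that overlapped one of the other genotype. The deposited signal is an area under the curve (AUC): the authors' caller summed −log10 p along each region. The deposited −log10 q is that of the summit, and the −log10 p beside it was not used. The deposited score is the AUC per base pair, scaled and capped, and was not used for any result. Every column of sample values in the lists was a pooled one, and depth per library is unknown, so no interval or floor that needs counts is given.

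Regions were joined to GENCODE M21 gene bodies with a margin of 10 kb and an overlap of at least 1 bp, with Python 3.11.15, numpy 2.4.6 and pandas 2.3.3. Classes were taken in the order promoter (within 200 bp of any start), exon, intron and intergenic. Similar length meant within 20%. Region numbers were read as 1 call per genotype, running along each chromosome, and their highest value as a lower bound on control regions. The CTCF and ZNF143 consensus motifs were scanned with up to 1 mismatch and the others exactly, on both strands. Of the 8031 RCAs, those not on chromosomes 1 to 19 and X were left out of the sequence steps, which used 8019. Sequences came from GRCm38.p6 and the RefSeq promoter table of that build. The functions for overlap, distance, class and motif search were tested on simulated data.

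The text names all 10 genes, Dio2, genes that share a region with them, the gene nearest to the next region beyond 10 kb, and the genes of the list of related genes with a region, except for 1 result that is not reported here. The genes and lists were chosen with earlier results of these data known. Alternatives were other distances, region filters, promoter windows, length ranges and start sites.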

Additional observations from a re-analysis of the deposited data

How the results depend on the processing

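The 5 RCAs at 5 genes were found with regions within 100 bp merged and with the region midpoint, and 4 at 4 genes with a width of at least 200 bp, where Nipbl dropped out. Counting gene bodies alone left 2 RCAs at 2 genes, Ctcf and Pds5a, while the share of all protein-coding genes with an RCA became 15.8%. With 5 kb the genes kept 5 RCAs and that share was 21.3%, and with 50 kb there were 7 RCAs at 5 genes and the share was 44.6%. An AUC of at least 300 left 2 RCAs at 2 genes, Nipbl and Pds5a, while 13.0% of protein-coding genes had any such RCA within 10 kb. Of the 2 RCAs, 1 was in the promoter class, and their median AUC was 397. A −log10 q of at least 3 left 1 RCA at 1 gene, Nipbl, while 19.8% of protein-coding genes had any such RCA within 10 kb. With that filter 0 RCAs were in the promoter class. The promoter regions at Ctcf, Stag2 and Pds5a thus each had a −log10 q below 3. Promoter windows of 1000 and 3000 bp gave 4 genes in place of 3. The share of all protein-coding genes at these wider windows was not computed, so the 4 genes have no background here. RefSeq starts, an alternative chosen after seeing the data, gave the same 4 genes with an RCA within 1 kb of an own start. The mean share over the sets of similar length was 32.0%, became 31.2% with lengths within 50%, and 26.9% with the same chromosome type.

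No paired analysis was possible because the calls were pooled over the libraries of a genotype, so leaving out 1 library was not possible either. The absence of a region can mean a summit just under the calling threshold, and depth per library, which sets that limit, is unknown.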
